A study of Mus musculus with 8 samples.

Results

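Interleukins are secreted proteins through which cells of the immune system, and stromal cells such as fibroblasts, signal to each other, and interleukin receptors are the membrane chains that bind them. The genes described here are the 81 rows of a mouse RNA-seq count table, out of 53921 rows that name a gene, whose symbol is Il followed by a number, leaving out Il34 and names ending in os. The rule used no measured value. It took in 36 ligand genes, 38 receptor chains, 6 antagonists or decoy receptors and 1 enzyme (Il4i1), by their known roles.

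The libraries came from mouse cells labelled Induced cardiomyocytes(Neo), fibroblasts pushed towards a heart muscle identity by introduced transcription factors. Both groups received MGT, the usual short form for the factors Mef2c, Gata4 and Tbx5, and both were collected on day 5. The groups were MGT+shGrhl3 (2 libraries), with a short hairpin RNA against the Grainyhead-like transcription factor Grhl3, and MGT+shNT (2 libraries), read here as the control hairpin. Per the series' design text, hairpins were given by lentivirus for 5 days. The labels name no mouse strain, and no age unless the tag Neo stands for one. They give no word on whether the 2 libraries of a group are separate cultures. The p-values therefore speak only of the spread between these libraries, which could be technical. In the count table the hairpin columns carry the names shGrhl1 and shGrhl2, taken here as replicates of shGrhl3, although such names might stand for other Grhl genes. The comparison asks how interleukin genes differ when the hairpin against Grhl3 is present.

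Most interleukins signal by joining a ligand-specific receptor chain to a chain shared by many ligands. Chains of the IL-6, common gamma, IL-10 and IL-12 groups pass the signal to Janus kinases (JAK) and STAT transcription factors. Chains of the IL-1 and IL-17 families instead recruit adaptor proteins that lead to NF-kappaB. In the heart, fibroblasts are a known source of IL-6 and IL-11, and gp130, the shared chain of that family encoded by Il6st, also serves leukemia inhibitory factor and other ligands acting on heart muscle.

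Totals ran from 16104243 to 19823397 counts per library. Grhl3 itself had 11 and 19 counts in the shGrhl3 libraries, against 31 and 14 in the shNT libraries (log2 fold change -0.69, SE 0.56, adjusted p = 0.362), so a fall of the targeted mRNA was not detected at this depth. All 11 cardiomyocyte markers fixed for the check were above the filter in these cells, and so were all 10 cardiac fibroblast markers. Of the fibroblast markers 5 were lower in shGrhl3 cells, among them Pdgfra (log2 fold change -1.14) and Tcf21 (-0.71), and 1, Col1a1 (0.53), was higher. That is 60% of the 10 tested, against 35.0% of all genes tested. Macrophage and monocyte markers differed between the groups. Of 20 such markers 15 could be tested, of which 13 were lower in shGrhl3 cells and 1, Csf1r, was higher. Their summed level was 159 and 128 CPM in the shGrhl3 libraries, against 697 and 956 CPM in the shNT libraries. Here CPM is the count scaled to a common library size. Most of that sum was Lyz2 alone, with 102 and 75.7 CPM in shGrhl3, against 454 and 645 CPM in shNT. None of the 20 was at 0 in every library. In bulk samples, fewer cells of a type and less RNA per cell cannot be told apart. Of lymphocyte markers, Cd3d, Cd3g and Ms4a1 had 0 counts in all 4 libraries. Of the 8 mast cell and basophil markers, Fcer1a, Ms4a2 and Tpsb2 had 0, but 3 could be tested. Mcpt4 had 122 and 93 counts in the shGrhl3 libraries, against 11 and 13 in the shNT libraries, and was higher. Cpa3 had 14 and 15 counts in shGrhl3, against 37 and 33 in shNT, and was lower, while Kit did not pass. None of the 7 neutrophil markers could be tested, and S100a9 and Ly6g had 0. Cardiomyocyte markers summed to 6157 and 6005 CPM in the shGrhl3 libraries, against 4910.1 and 4922 CPM in the shNT libraries. Of the 11 tested, 5 were higher, 1 was lower and 5 did not pass (54.5% called, against 35.0% of all genes). Cardiac fibroblast markers summed to 12032.1 and 12829.5 CPM in shGrhl3, against 11038.6 and 11270.6 CPM in shNT. Their sum was thus higher in shGrhl3, although more of these genes were called lower than higher. Epicardial and epithelial markers summed to 357 and 348 CPM in shGrhl3, against 229 and 256 CPM in shNT. Of these, 8 were tested, 4 were higher and 0 lower (50% called). Endothelial markers summed to 47.7 and 43.4 CPM in shGrhl3, against 60.8 and 57.1 CPM in shNT. Of the 10 tested, 0 were higher, 2 were lower and 8 did not pass (20% called). The part of these differences in the results below was not tested.

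Interleukin expression in these cells was largely expression of receptors. Receptor chains held 95.5% and 95.2% of the counts of the 81 genes in the shGrhl3 libraries, against 94.99% and 95.4% in the shNT libraries. Ligands held 3.91% and 4.28% in the shGrhl3 libraries, against 4.53% and 4.10% in the shNT libraries, and Il6 alone made up 51.7% and 60.6% of those ligand counts in shGrhl3, against 64.8% and 58.6% in shNT. These shares are of read counts, which also depend on transcript length. Of the 36 ligands, 14 had 0 counts in all 4 libraries, among them Il1b, Il2, Il3, Il13 and Il17a. A count of 0 in a library allows a level of up to 0.150 to 0.189 CPM, the value of 3 counts, by counting error alone.

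**Figure D1:**
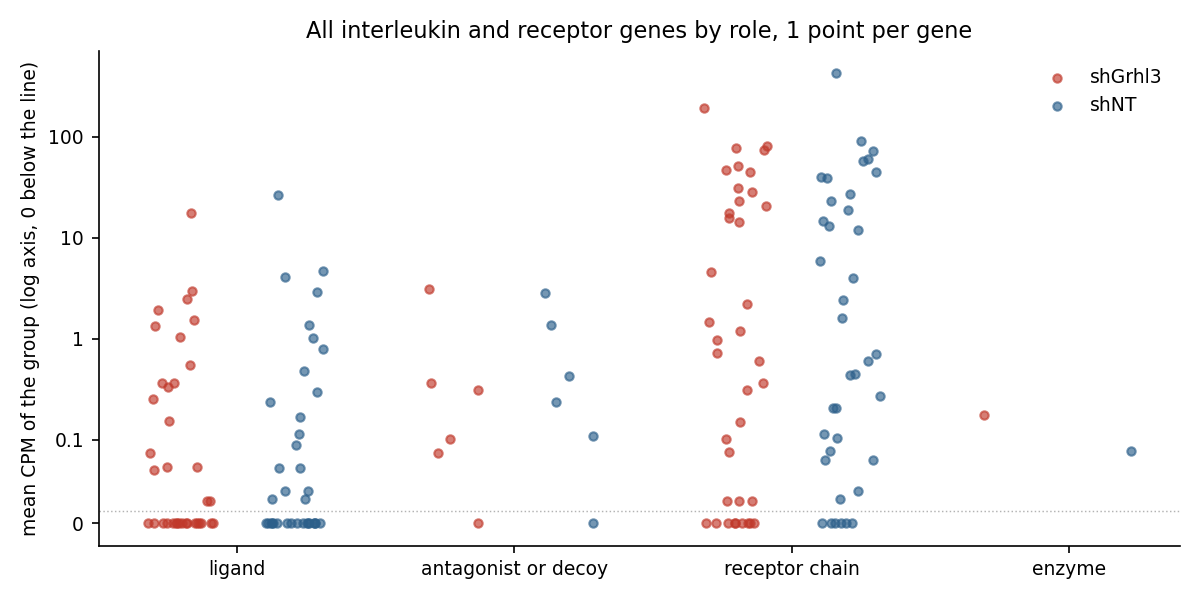
Mean level of each of the 81 genes in shGrhl3 cells (red, left) and in shNT cells (blue, right), by known role, in CPM on a log axis with 0 drawn below the dotted line. Receptor chains reach the highest levels, with Il6st on top at 190.1 CPM in shGrhl3 cells and 422 CPM in shNT cells, and Il6 stands above the other ligands.

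Of the 81 genes, 30 passed the filter on low counts and were tested, and 51 did not. With an adjusted p under 0.05, 3 were higher in shGrhl3 cells (Il17rc, Il1r1 and Il11ra1) and 7 were lower (Il6st, Il1rl2, Il6, Il1rap, Il4ra, Il1rn and Il17rd), while 20 did not pass. That is 33.3% of those tested, against 35.0% of all 15324 genes tested in this comparison, where 17.1% were higher and 17.9% lower. The share called was thus near that of all genes. The median log2 fold change of the 30 was -0.20, against -0.01 for all genes tested, and the median size without sign was 0.46, against 0.30. These sizes were not compared at like counts, and some of the 30 were poorly fixed, such as Il1rl1 (SE 0.91) and Il1rn (SE 0.66). The shGrhl3 libraries did not overlap the shNT libraries for 22 of the 30 (73.3%), against 66.5% of all genes tested. A gene could pass the filter through its higher group alone, so these figures describe the tested genes and not all 81.

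**Figure D2:**
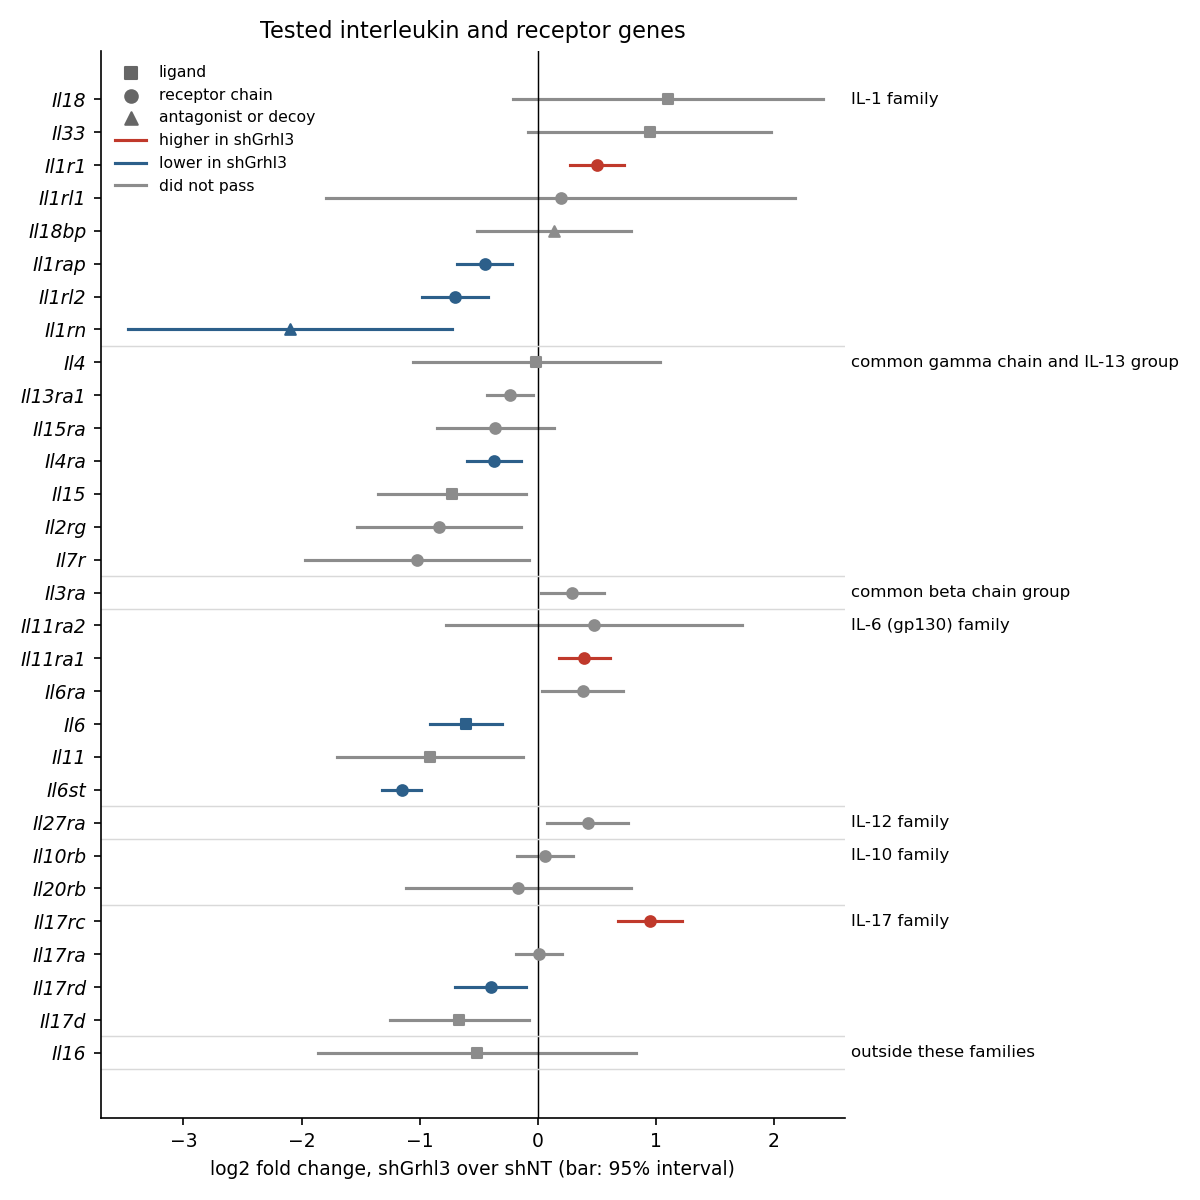
Log2 fold change of shGrhl3 over shNT for the 30 tested genes, grouped by family and ordered within it, with 95% intervals as bars. Il6st (-1.15) and Il17rc (0.95) lie farthest from 0 among genes with narrow intervals, and Il1rn (-2.09) has the lowest value with a wide interval.

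The IL-6 family gave the lowest p-value of the set. Il6st (chromosome 13, 112464070 to 112506860, mm10), the signal-transducing chain gp130, had 3748 and 3612 counts in the shGrhl3 libraries, against 7908 and 6854 in the shNT libraries. Its level was 187 and 193 CPM in shGrhl3 cells and 413 and 432 CPM in shNT cells. Both shGrhl3 libraries were well below both shNT libraries, and libraries of a group lay close together. Il6st fell by 1.15 on the log2 scale, with an SE of 0.08 and a 95% interval of -1.32 to -0.98 (adjusted p = 1.99e-10). Its value stayed between -1.18 and -1.12 under all 13 alternatives and passed in each.

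Il6st carried most of the difference in the summed level of the 81 genes. It held 25.1% and 24.9% of their counts in the shGrhl3 libraries, against 41.5% and 43.0% in the shNT libraries. The summed level of all 81 was 745 and 776 CPM in shGrhl3 cells, against 995.5 and 1003 CPM in shNT cells. Without Il6st the sum was 558 and 583 CPM in shGrhl3 cells and 582 and 572 CPM in shNT cells, and the groups overlapped.

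The ligand Il6 (chromosome 5, 30013114 to 30019975) was also lower. It had 302 and 376 counts in the shGrhl3 libraries, against 559 and 383 in the shNT libraries. As CPM these were 15.1 and 20.1 in shGrhl3 cells and 29.2 and 24.1 in shNT cells, without overlap. The log2 fold change was -0.60 (SE 0.15, adjusted p = 0.00252), and with 1 library left out it ran from -0.81 to -0.41 and still passed. Of the 10 fibroblast markers described above, 5 were lower in the same libraries and 1 was higher, while their summed level was higher in shGrhl3. The part of these markers in the Il6 result was not tested.

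The stretch of 250 bases before the RefSeq start of each gene, on GRCm38.p6 (the assembly behind mm10) and on the plus strand, is shown for the gene with the lowest p among the lower ones (Il6st), for the ligand that it serves (Il6), and for the gene with the lowest p among the higher ones (Il17rc). They lie at chr13:112463820-112464069, chr5:30012864-30013113 and chr6:113471205-113471454. Capitals mark matches to 5 motifs searched on both strands, GGANTTTCC for NF-kappaB, TGANTCA for AP-1, TTGNGCAA for C/EBP, TTNCNNNAA for STAT factors and AACNGGTT for Grainyhead factors.
Il6st: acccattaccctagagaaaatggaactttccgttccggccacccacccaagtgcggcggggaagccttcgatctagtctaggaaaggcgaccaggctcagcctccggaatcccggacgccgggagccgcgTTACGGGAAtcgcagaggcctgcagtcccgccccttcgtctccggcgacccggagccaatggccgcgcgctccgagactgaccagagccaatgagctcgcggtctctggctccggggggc
Il6: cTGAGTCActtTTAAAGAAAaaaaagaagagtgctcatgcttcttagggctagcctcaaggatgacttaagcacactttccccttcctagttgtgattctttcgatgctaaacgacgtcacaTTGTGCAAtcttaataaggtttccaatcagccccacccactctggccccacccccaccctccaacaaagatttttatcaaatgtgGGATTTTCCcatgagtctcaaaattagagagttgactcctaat
Il17rc: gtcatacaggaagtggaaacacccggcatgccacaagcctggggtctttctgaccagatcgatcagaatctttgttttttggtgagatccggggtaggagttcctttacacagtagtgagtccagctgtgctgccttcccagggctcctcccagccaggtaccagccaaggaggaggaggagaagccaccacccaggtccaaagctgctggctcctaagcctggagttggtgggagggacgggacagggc

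In the Il6 stretch the AP-1 match begins 249 bases before the start, the STAT match 239, the C/EBP match 128 and the NF-kappaB match 43, and none of them overlap. Il6st held 1 match, to the STAT motif, beginning 120 bases before the start, and Il17rc held none of the 5. Across all 32851 windows of this length in the RefSeq table, 1.07% held the NF-kappaB motif, 6.75% AP-1, 2.61% C/EBP, 32.9% STAT and 1.79% Grainyhead. The STAT letters are therefore common in any such window. Of the 81 genes, 65 had a window, with 80 windows in all. Of these 80, 6.25% held the NF-kappaB motif, 17.5% AP-1, 5% C/EBP, 47.5% STAT and 3.75% Grainyhead. Genes that passed the test had 14 of the windows. Among them the Grainyhead letters were found before Il1rn, and the NF-kappaB letters before Il6 and Il1rl2. AP-1 letters were found before Il1rn and Il6, C/EBP letters before Il6, and STAT letters before Il11ra1, Il1r1, Il1rn, Il6 and Il6st. A match of letters is a description and not a bound site.

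Other chains of the IL-6 family did not follow Il6st. Il11ra1 (chromosome 4, 41760443 to 41769473), the IL-11 receptor chain that signals through gp130, had 1039 and 945 counts in the shGrhl3 libraries, against 708 and 649 in the shNT libraries. It stood at 51.2 ± 0.871 CPM in shGrhl3 cells and 38.9 ± 2.74 CPM in shNT cells (SD, n = 2 each), and rose by 0.40 on the log2 scale (SE 0.10, adjusted p = 0.00485). The call was lost without shNT replicate 1 (0.32, adjusted p = 0.0982). Il11ra2, a near copy on the same chromosome, had 25 and 13 counts in shGrhl3 and 8 and 16 in shNT, with overlap, and the assignment of reads shared by both copies is unknown here. Il6ra, the IL-6 binding chain, had 261 and 339 counts in shGrhl3 libraries, against 235 and 184 in shNT libraries (log2 fold change 0.38, SE 0.17, adjusted p = 0.0812). It did not pass with all 4 libraries, and passed without shGrhl3 replicate 1, at 0.60, but stood at 0.14 (adjusted p = 0.640) without shGrhl3 replicate 2. Il11, the ligand of Il11ra1 and a known fibroblast product, had 24 and 35 counts in shGrhl3 libraries and 53 and 48 in shNT libraries (log2 fold change -0.92, SE 0.38, adjusted p = 0.0656). The Il11 libraries did not overlap, but the gene passed only under the stricter filter (adjusted p = 0.0477) and without shGrhl3 replicate 2 (0.0407). Il31 had 0 counts throughout and Il31ra at most 3.

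Genes of the same family that carry other names were read from a fixed list of 11, of which 8 were tested, 2 were higher and 0 lower (25% called, against 35.0% of all genes). Lif, encoding leukemia inhibitory factor, had 76.1 and 73.4 CPM in shGrhl3 cells, against 53.9 and 57.3 CPM in shNT cells (log2 fold change 0.43, SE 0.10, adjusted p = 0.00118). The ligand-specific receptor chains Lifr (log2 fold change 0.24, adjusted p = 0.239) and Osmr (-0.17, adjusted p = 0.171) did not pass. Osm, the gene of the macrophage product oncostatin M, was below the filter, with 0 and 1 counts in shGrhl3 libraries and 7 and 8 in shNT libraries.

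**Figure D3:**
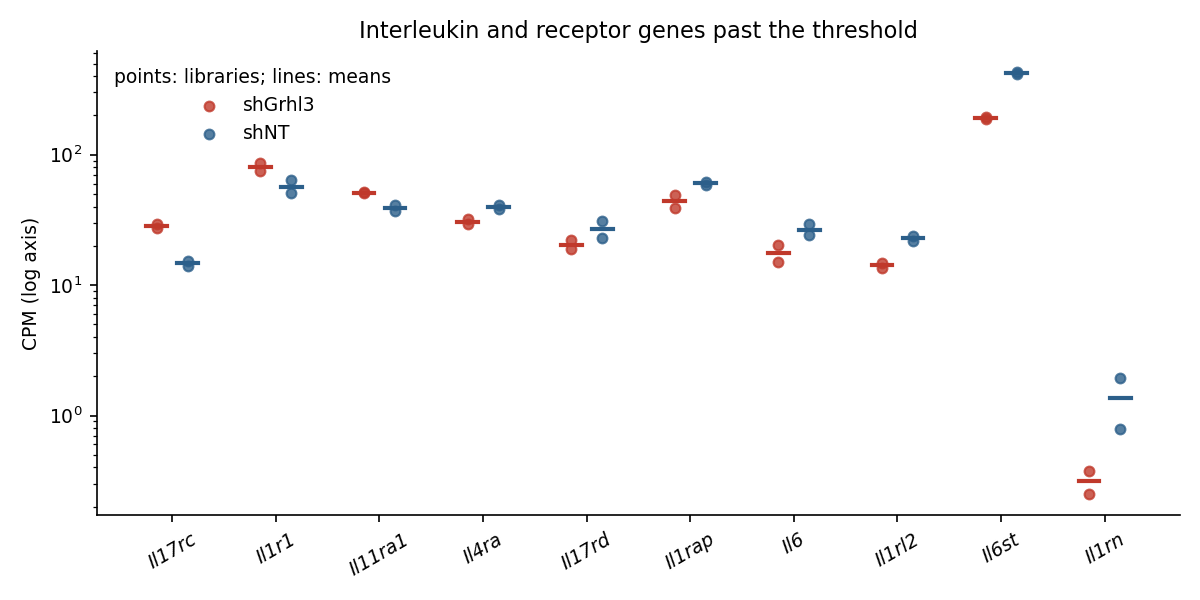
Level of the 10 genes past the threshold in each library, in CPM on a log axis, with shGrhl3 (red) left of shNT (blue), points for libraries and lines for group means. Il17rc, Il1r1 and Il11ra1 stand higher in shGrhl3, and the other 7 stand lower. The groups of none of the 10 overlap, but the 10 were picked by a test of this same difference. Of all genes tested, 66.5% did not overlap.

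IL-1 family receptors moved in both directions. IL-1 binds the chain encoded by Il1r1, which then recruits the accessory chain encoded by Il1rap. Il1r1 (chromosome 1, 40222480 to 40316201) had 1515 and 1600 counts in the shGrhl3 libraries, against 966 and 1007 in the shNT libraries. Its level was 75.6 and 85.6 CPM in shGrhl3 cells and 50.5 and 63.4 CPM in shNT cells, and it rose by 0.50 on the log2 scale (SE 0.11, adjusted p = 0.00103). The call was lost without shNT replicate 1 (0.34, adjusted p = 0.0577). Il1rap (chromosome 16, 26581509 to 26730128) had 784 and 921 counts in shGrhl3 libraries and 1183 and 933 in shNT libraries. As CPM these were 39.1 and 49.3 in shGrhl3 cells, against 61.8 and 58.8 in shNT cells, a fall with a log2 fold change of -0.45 (SE 0.11, adjusted p = 0.00282). Without shGrhl3 replicate 1 it was -0.29 and just passed (adjusted p = 0.0490). Both chains of the IL-1 receptor thus passed the test with opposite signs.

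Il1rl2, the receptor chain for the IL-36 cytokines, lies next to Il1r1 in a cluster of receptor genes on chromosome 1, with 8.39 kb between them. It had 271 and 276 counts in the shGrhl3 libraries, against 458 and 349 in the shNT libraries, and fell by 0.70 on the log2 scale (SE 0.14, adjusted p = 0.000284). The neighbours Il1r1 and Il1rl2 therefore moved in opposite directions, each without overlap between groups. The next gene, Il1rl1, encodes ST2, the receptor for IL-33, and had 14 and 14 counts in shGrhl3 libraries, against 23 and 0 in shNT libraries. The shNT libraries lay on both sides of the shGrhl3 libraries, and no difference was detectable (95% interval -1.79 to 2.18 on the log2 scale). Without shNT replicate 1 all remaining shNT counts of Il1rl1 are 0, and the fit then called it higher (adjusted p = 0.0269). Further along the cluster, Il18r1 had 0 counts in all libraries and Il18rap had 4 counts in 1 shNT library. The decoy receptor gene Il1r2 had 1 to 5 counts per library.

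**Figure D4:**
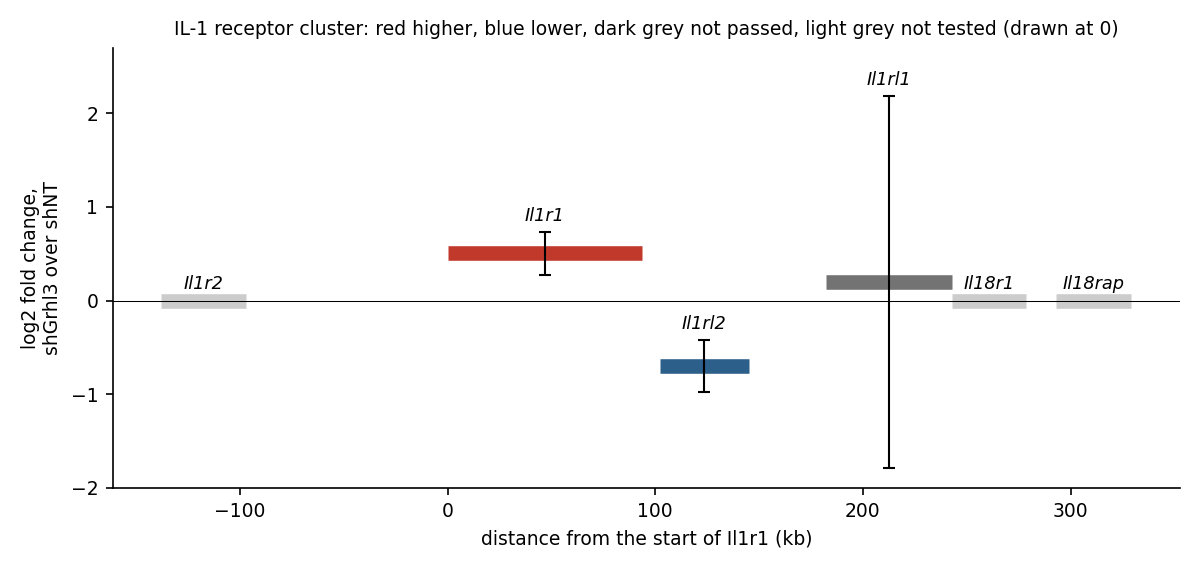
Genes of the IL-1 receptor cluster drawn to scale by distance from the start of Il1r1 in kb, at the height of their log2 fold change of shGrhl3 over shNT, with 95% intervals. Il1r1 (red) is above 0 and Il1rl2 (blue) below it, Il1rl1 (dark grey) has a wide interval, and the light grey genes had too few counts to be tested and are drawn at 0.

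Ligands for these receptors were scarce. Il1a had 8 and 2 counts in the shGrhl3 libraries, against 2 and 0 in the shNT libraries. The IL-36 ligand genes Il1f6, Il1f8 and Il1f9 had 0 in all 4, as had Il1f5, which encodes the IL-36 receptor antagonist. Il33, an alarmin of stromal cells, had 32 and 42 counts in shGrhl3 libraries, against 11 and 23 in shNT libraries (log2 fold change 0.95, SE 0.50, adjusted p = 0.148). It passed without shNT replicate 2, at 1.73, and stood at 0.40 (adjusted p = 0.665) without shNT replicate 1. Il18 had 30 and 11 counts in shGrhl3 libraries and 10 and 7 in shNT libraries (log2 fold change 1.11, SE 0.63, adjusted p = 0.188). Il18bp, which binds and blocks IL-18, stood at 3.09 ± 0.137 CPM in shGrhl3 cells and 2.81 ± 0.317 CPM in shNT cells (SD, n = 2 each), with overlap.

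Il1rn, which encodes the IL-1 receptor antagonist, had 5 and 7 counts in the shGrhl3 libraries, against 15 and 31 in the shNT libraries. On the log2 scale it fell by 2.09, the lowest value of the 30, with an SE of 0.66 and a 95% interval of -3.47 to -0.72 (adjusted p = 0.0166). At these counts the size is poorly fixed. The call was lost without shNT replicate 2 (-1.32, adjusted p = 0.393) and without shGrhl3 replicate 1 (-1.83, adjusted p = 0.0840), and the gene did not enter the test under the stricter filter. Macrophages are a known source of this antagonist, and their summed markers, given above, were lower in shGrhl3 cells too. The part of that difference in the Il1rn result was not tested.

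The IL-17 family held the largest rise that passed the test. Il17rc (chromosome 6, 113471455 to 113483163), which pairs with Il17ra in the receptor for IL-17A and IL-17F, had 548 and 547 counts in the shGrhl3 libraries, against 266 and 245 in the shNT libraries. Its level was 27.3 and 29.3 CPM in shGrhl3 cells, and 13.9 and 15.4 CPM in shNT cells. The groups were clearly apart, with a 1.93-fold rise (log2 fold change 0.95, SE 0.13, adjusted p = 4.31e-06) that passed under all 13 alternatives, between 0.87 and 1.03. Its partner Il17ra stood at 72.9 ± 3.32 CPM in shGrhl3 cells and 72.4 ± 1.99 CPM in shNT cells (SD, n = 2 each), with a 95% interval of -0.18 to 0.20 on the log2 scale. Il17rd, also known as Sef and as a brake on fibroblast growth factor signalling, had 377 and 412 counts in shGrhl3 libraries and 590 and 362 in shNT libraries. Its log2 fold change was -0.40 (SE 0.14, adjusted p = 0.0352), and the call was lost with DESeq2 (adjusted p = 0.108), without shGrhl3 replicate 1 (-0.29) and without shNT replicate 1 (-0.16).

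Il17re, the receptor chain for IL-17C, ends 696 bases before Il17rc starts. It was below the filter, with 9 and 14 counts in the shGrhl3 libraries, against 0 and 2 in the shNT libraries. With no expression filter it passed as higher (adjusted p = 0.0470), and it also passed without shGrhl3 replicate 1 and without shNT replicate 2. Whether reads of the one gene could be counted to the other was not tested. Of the ligands, Il17d had 69 and 46 counts in shGrhl3 libraries, against 87 and 77 in shNT libraries (log2 fold change -0.66, adjusted p = 0.0731). It passed without shGrhl3 replicate 1, at -0.93, and stood at -0.43 without shGrhl3 replicate 2. Il17a and Il17b had 0 counts, and Il17c and Il17f at most 5 per library. Il25 had 4 and 10 counts in shGrhl3 libraries and 2 and 2 in shNT libraries, too few to test.

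Of the 5 tested receptor chains of the common gamma chain and IL-13 group, 1 passed, against 35.0% of all genes tested. All 5 had log2 fold changes below 0, against a median of -0.01 for all genes tested. Il4ra (chromosome 7, 125552271 to 125579474), the IL-4 receptor alpha chain that IL-13 also uses, had 592 and 596 counts in the shGrhl3 libraries, against 728 and 657 in the shNT libraries. Its level was 29.5 and 31.9 CPM in shGrhl3 cells and 38.0 and 41.4 CPM in shNT cells, and its log2 fold change was -0.37 (SE 0.11, adjusted p = 0.0127). The call was lost without shGrhl3 replicate 1 (adjusted p = 0.0710) and without shNT replicate 2 (0.121). Il13ra1, which joins Il4ra in the IL-13 receptor, stood at 76.6 ± 2.30 CPM in shGrhl3 cells and 90.1 ± 5.96 CPM in shNT cells (SD, n = 2 each), and missed the threshold (log2 fold change -0.23, adjusted p = 0.0528). The shared gamma chain gene Il2rg had 59 and 28 counts in shGrhl3 libraries and 79 and 61 in shNT libraries (adjusted p = 0.0571). Il7r had 13 and 32 counts in shGrhl3 libraries, against 41 and 42 in shNT libraries (adjusted p = 0.0871). Both are leukocyte genes, and the libraries of neither overlapped between groups. Il2rg had a log2 fold change of -0.84 and passed without shGrhl3 replicate 1 (-1.41), but stood at -0.42 (adjusted p = 0.423) without shGrhl3 replicate 2. Il7r had one of -1.02 and passed without shGrhl3 replicate 2 (-1.85), but stood at -0.47 (adjusted p = 0.512) without shGrhl3 replicate 1.

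Il15, a cytokine that supports lymphocytes and is also made by stromal cells, had 44 and 52 counts in the shGrhl3 libraries, against 85 and 60 in the shNT libraries (log2 fold change -0.73, SE 0.30, adjusted p = 0.0659). Its receptor chain Il15ra had a log2 fold change of -0.36 (adjusted p = 0.264). Il4 had 39 and 14 counts in shGrhl3 libraries and 28 and 20 in shNT libraries, with overlap. Il13, Il2 and Il9 had 0 counts in all libraries, and Il7 had 3 to 8.

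The remaining tested genes did not pass. Il27ra, which joins gp130 in the IL-27 receptor, had 411 and 275 counts in the shGrhl3 libraries, against 275 and 188 in the shNT libraries. It just missed the threshold (log2 fold change 0.42, SE 0.17, adjusted p = 0.0517). It passed as higher under 7 of the 13 alternatives, and stood at 0.16 (adjusted p = 0.577) without shGrhl3 replicate 1. Il3ra, the IL-3 binding chain, stood at 23.1 ± 1.62 CPM in shGrhl3 cells and 18.9 ± 0.0620 CPM in shNT cells (SD, n = 2 each; adjusted p = 0.0788). Il10rb, a chain shared by the receptors of IL-10, IL-22 and the lambda interferons, had 46.9 ± 7.99 CPM in shGrhl3 cells and 45.0 ± 0.623 CPM in shNT cells (SD, n = 2 each; adjusted p = 0.716). Il20rb and Il16 overlapped between groups. Il10ra, the IL-10 binding chain found on macrophages, was below the filter with 3 and 1 counts in shGrhl3 libraries and 13 and 3 in shNT libraries. Of the IL-12 family, Il12rb2 had 0 and 0 counts in shGrhl3 libraries and 3 and 4 in shNT libraries, while the IL-23 ligand gene Il23a and its receptor chain Il23r had 2 to 8. Il4i1, an enzyme gene induced by IL-4, had 6 and 1 counts in shGrhl3 libraries and 3 and 0 in shNT libraries. Of the 51 untested genes, 20 had 0 counts in all 4 libraries, and only Il2rb, Il10ra, Il25 and Il17re reached 10 counts in any library.

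Signalling genes downstream of these receptors were read from lists of which no gene is a member. Of 23 tested JAK, STAT and SOCS genes, 2 were higher and 6 lower, with a median log2 fold change of -0.16, against -0.01 for all genes tested. The share called, 34.8%, was near the 35.0% of all genes. Stat3, the factor that gp130 activates, had 174.9 and 179.8 CPM in shGrhl3 cells and 219.8 and 233.9 CPM in shNT cells (log2 fold change -0.36, SE 0.08, adjusted p = 0.00162). Stat6, which IL-4 receptor chains activate, fell with a log2 fold change of -0.41 (SE 0.09, adjusted p = 0.000989). Stat2 (-0.95), Stat5b (-0.50) and Socs2 (-0.82) fell as well. The phosphatase genes Ptpn11 (0.32) and Ptpn2 (0.42) rose. Jak1 (-0.15, adjusted p = 0.157) and Socs3, a gp130 feedback inhibitor (-0.18, adjusted p = 0.368), did not pass.

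Of 28 tested genes between the IL-1 receptor and NF-kappaB, 2 were higher and 7 lower (32.1% called, against 35.0% of all genes), with a median log2 fold change of -0.01. Peli2 (-1.04), Ikbkg (-0.54), Rela (-0.34) and Irak4 (-0.50) had the lowest p-values among those that fell, and Nfkbiz (0.31) and Nfkbie (0.50) rose. The adaptor gene Myd88 (0.22, adjusted p = 0.155) and Traf6 (-0.01, adjusted p = 0.969) did not pass. Of 12 IL-17 receptor signalling genes, 4 rose and 1 fell (41.7% called, against 35.0% of all genes). Traf3 rose with a log2 fold change of 0.66, Traf5 fell with -0.62, and the adaptor gene Traf3ip2 did not pass (-0.03, adjusted p = 0.848).

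Of 11 tested genes for inflammasomes and the processing of IL-1 family ligands and cytokine receptors, 2 rose and 4 fell (54.5% called, against 35.0% of all genes). Adam10, a protease that sheds the IL-6 receptor among other proteins, had 139.5 and 147 CPM in shGrhl3 cells, against 327 and 314 CPM in shNT cells (log2 fold change -1.16, SE 0.08, adjusted p = 2.33e-10). Adam17, another such sheddase, fell with a log2 fold change of -0.45 (adjusted p = 0.000224). Casp1, the protease that matures IL-1 beta and IL-18 and is abundant in macrophages, had 0 and 0.375 CPM in shGrhl3 cells and 2.09 and 1.70 CPM in shNT cells (adjusted p = 0.00135). Txnip (1.18, adjusted p = 1.29e-10) and Pycard (1.01, adjusted p = 0.0460) rose. Pycard had only 82 and 41 counts in the shGrhl3 libraries, against 32 and 23 in the shNT libraries (SE 0.39). Of 7 tested cytokine receptor chains and ligands related to the set, 0 rose and 2 fell (28.6% called, against 35.0% of all genes). These were Csf2rb, the shared chain that Il3ra pairs with, and its close paralog Csf2rb2, with log2 fold changes of -1.11 and -1.58. The macrophage markers given above were mostly lower too, with Csf1r higher, and their part in this result was not tested.

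**Figure D5:**
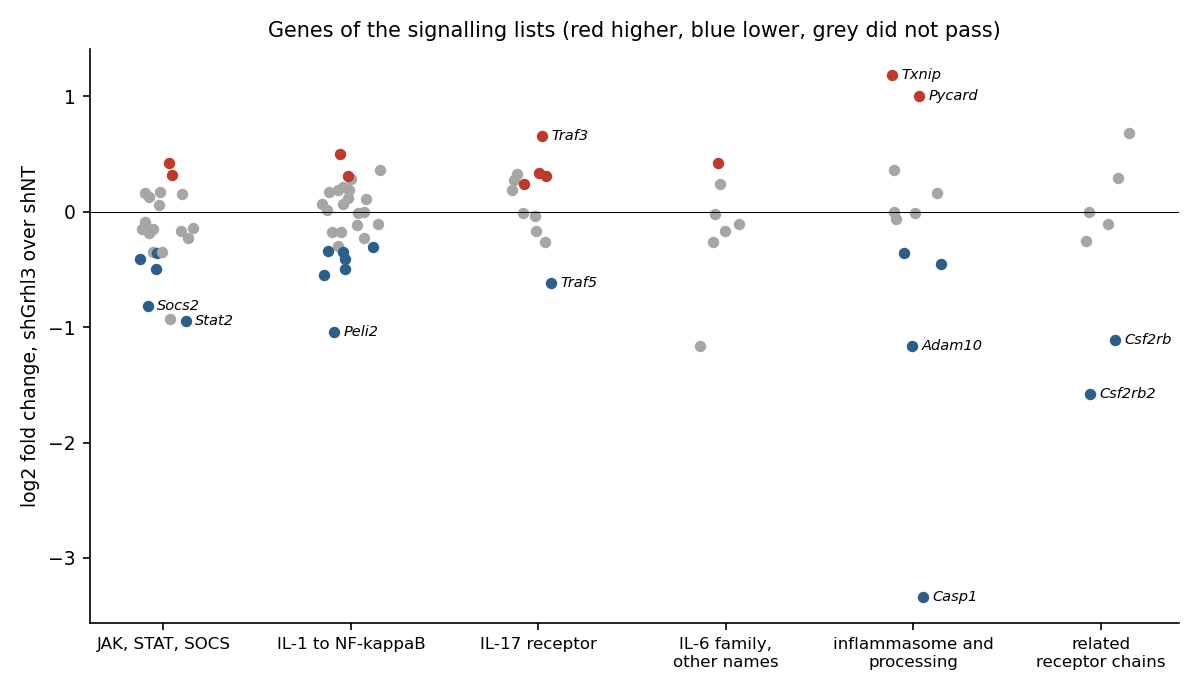
Log2 fold change of shGrhl3 over shNT for the tested genes of the 6 signalling lists that are reported here, 1 point per gene, red where higher, blue where lower and grey where the test was not passed, with names on the passing genes farthest from 0. The lowest point is Casp1, and Adam10, Peli2 and Stat2 lie near -1.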

How the data were processed

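The authors deposited unnormalized whole-number counts for the 4 RNA-seq libraries. The genome was mm10, and HISAT2 2.0.1, cutadapt 1.9.1 and Bowtie2 2.2.6 are named per the submitters' processing notes, with no role given. How reads were counted (program, annotation, strand) was not given in the sources used here, so reads of near copies and overlapping genes may be split or merged. CUT&Tag samples for H3K27ac (4) were not analysed here. The columns named shGrhl1 and shGrhl2 were matched to the shGrhl3 titles, reading the digit as the replicate number, since the labels name no other target.

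Rows naming no gene (1438 of 55359, 0.00432% to 0.00872% of counts) were left out. Tests used edgeR 4.0.16 in R 4.3.3: filterByExpr (minimum count 10), TMM factors, a robust quasi-likelihood fit without covariates, and two-sided p-values adjusted by Benjamini-Hochberg over 15324 genes at 0.05. CPM uses TMM-scaled totals of the tested rows. SE was derived from the F statistic. DESeq2 1.42.0 and limma 3.58.1 served as alternatives. The procedure was tested on simulated data. Library pairs differed beyond sampling noise (chi-square per degree of freedom 8.66 for shGrhl3 and 14.1 for shNT). Gene positions and promoter windows are RefSeq GRCm38.p6, in which all 81 symbols were found. The members, gene lists and named-gene rule (every tested member, and up to 4 genes per list and direction with the lowest p) were chosen with earlier results of these data known. Stat3 and list genes that did not pass were named after their values were seen. Limits from counts of 0 cover counting error only. Some genes of the lists are included in the counts but not reported here.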

Additional observations from a re-analysis of the deposited data

How the results depend on the processing

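The number of higher interleukin and receptor genes was 3, and became 5 with no expression filter, where Il27ra and Il17re were added, and 3 to 5 with 1 library left out. The number of lower ones was 7, and ran from 5 to 9 with 1 library left out. No called interleukin or receptor gene changed sign under the 13 alternatives. Il6st, Il1rl2, Il6, Il1rap and Il17rc passed under every alternative. In 384 refits of single genes, 9 lost a call and 18 gained one. Fits with a library left out assume that the lone library varies like the others. With the replicate block, 4 were higher and 8 lower, adding Il27ra and Il2rg, and 4889 genes passed in all, against 5368. Samples sharing a number are not shown to be paired, since their deviations correlated at -0.0549 across genes. Leaving out the Rn18s row, which held 0.0959% and 0.156% of counts in the shGrhl3 libraries and 0.573% and 2.00% in the shNT libraries, was chosen after seeing the data and gave 4 higher and 7 lower. Depth limits the ligands, most of which had under 10 counts per library.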
